A study of Mus musculus with 30 samples.

Results

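The step from the first to the second hemogenic endothelium population was examined in wild type (WT) cells of the E14 mouse embryonic stem cell (ESC) line. Both populations were sorted at day 2 of blast culture, in which Flk1+ cells from embryoid bodies form endothelium and blood. HE1 cells were KIT+ CD41- Tie2+ and HE2 cells were KIT+ CD41+ Tie2+, so the sort itself separated them by CD41. The comparison used 4 of the 30 samples, with 2 biological replicates of HE1 and 2 of HE2, and all 14525 genes above 1 FPKM in at least 1 sample. FPKM are fragments scaled to transcript length and to the number of mapped fragments. The table as deposited held 14685 genes, quantile normalised by the authors.

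The other samples served for context. They were WT ESC, Flk1+ cells and progenitor cells (KIT+ CD41+ Tie2-), and the same 5 populations of 2 mutant E14 lines. Sp1_deltaDBD cells lack the DNA-binding domain of Sp1, and Sp3KO cells lack Sp3, both of which are widely expressed factors that bind GC-rich promoter motifs. All populations derive from a single ESC line differentiated in vitro, and floating and adherent cells were sorted together. The number of clones of each mutant is not given in the sources used here.

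Hemogenic endothelium is endothelium from which blood cells arise. Its cells first carry the receptors, junctions and transcription factors of vessels, then lose adhesion to their neighbours, round up and enter the circulation as blood progenitors. Runx1, together with its targets Gfi1 and Gfi1b, is needed for this change, and CD41 is among the earliest blood markers on the surface of such cells. The data are from bulk RNA of sorted cells, in which fewer cells of a type and less RNA per cell cannot be told apart.

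Many genes of blood cells were higher in HE2, and many of endothelium, mesenchyme and heart were lower. With limma on log2(FPKM + 0.1), 1703 genes rose and 1478 fell at an adjusted p below 0.05, which is 11.7% and 10.2% of the genes tested (21.9% in both directions). The median difference between HE2 and HE1 over all genes tested was 0.05 on the log2 scale. More falls than rises exceeded 1 on that scale, and more rises than falls exceeded 3. A change above 1 on the log2 scale was reached by 572 of the genes that rose and 897 that fell, a change above 3 by 70 and 21, and a change above 4 by 31 and 2. Both HE1 samples were listed at or near 0 FPKM in 40 of the rises, and both HE2 samples in 19 of the falls. The size of those changes rests on the 0.1 added before the log. Both HE1 samples lay on 1 side of both HE2 samples in 3176 of the 3181 calls. Such separation was found in 31.4% of all genes tested with HE2 higher and in 24.9% with HE1 higher.

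The fit took the spread between replicates from all 15 groups of the series. A fit of the 4 samples alone made 0 calls, with a smallest adjusted p of 0.0627 and 3580 genes at an unadjusted p below 0.05, against 4879 (33.6% of those tested) in the fit of 30 samples. By a fold rule with no test, in which means differ more than 2 times and the larger mean exceeds 3 FPKM, 369 genes were higher in HE2 and 802 lower, 2.54% and 5.52% of the genes tested. An exact permutation test of 2 against 2 samples cannot give a two-sided p below 0.333, and none was used. Across genes, which are not independent replicates, Pearson's r of log2(FPKM + 0.1) was 0.974 between the HE1 replicates, 0.975 between the HE2 replicates and 0.930 to 0.953 between HE1 and HE2 samples. Without HE1 replicate 1 the counts were 1007 higher and 874 lower, and without HE2 replicate 1 1045 genes were higher. Of 238 called genes of the lists and of the largest changes, 120 were called with each of the 4 libraries left out in turn, 118 lost the call when at least 1 of them was left out and 20 whichever was left out, and these libraries are named beside the genes described with a call. The authors' values give no read counts, so the depth behind each is unknown.

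**Figure D1:**
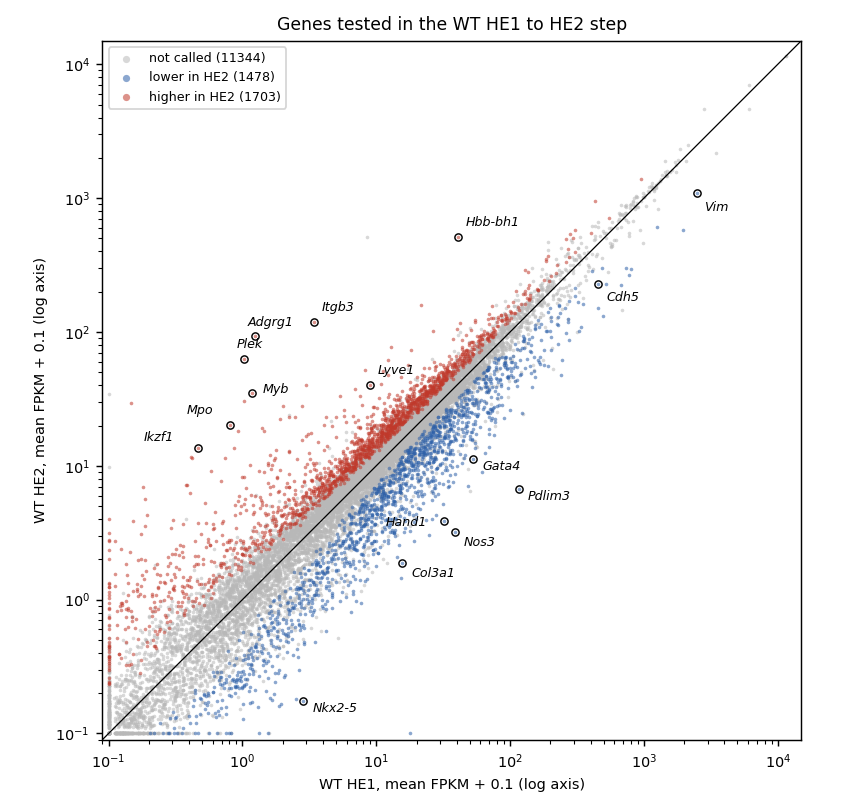
Mean FPKM + 0.1 of each gene tested in WT HE1 (x axis) and WT HE2 (y axis), both on log axes, with each point a gene, the line equality, and colours the limma calls. The 1703 genes higher in HE2 lie above the line and the 1478 lower genes below it, and labelled blood genes such as Myb and Itgb3 stand farther from it than labelled endothelial genes such as Cdh5.

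The receptors used for the sort are described here and not counted as results, since only CD41 was gated differently in HE1 and HE2. Itga2b, which encodes CD41, had 34.8 and 49.2 FPKM in HE1 and 84.6 and 147 FPKM in HE2. Tek, the gene of Tie2, had 135 and 205 FPKM in HE1 and 85.1 and 90.2 FPKM in HE2, although both populations were gated as Tie2+. Kit, also gated as positive in both, had 16.9 and 26.8 FPKM in HE1 and 36.9 and 58.5 FPKM in HE2. None of the 3 overlapped between the populations.

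The transcription factors of the hematopoietic heptad, which act together in blood stem and progenitor cells, did not all move. Of its 7 genes, 4 rose, 0 fell and 3 were not called, with a median log2 fold change of 1.13. Runx1, a factor required for the endothelial to hematopoietic transition, had 4.66 and 1.33 FPKM in HE1 and 24.6 and 9.80 FPKM in HE2. Its HE1 samples were both below its HE2 samples, but replicate 1 was the higher one in each population (log2 fold change 2.58, SE 0.70, adjusted p = 0.0127). Lyl1, a basic helix-loop-helix factor, had 9.31 and 14.9 FPKM in HE1 and 35.6 and 59.9 FPKM in HE2 and rose (log2 fold change 1.96, SE 0.33, adjusted p = 3.57e-04). Its relative Tal1, a master regulator of blood formation, had 24.8 and 29.3 FPKM in HE1 and 52.4 and 66.3 FPKM in HE2 (log2 fold change 1.13, SE 0.35, adjusted p = 0.0264), and Lmo2, the bridging protein of the Tal1 complex, had 19.1 and 26.0 FPKM in HE1 and 50.9 and 56.3 FPKM in HE2 (log2 fold change 1.26, SE 0.21, adjusted p = 4.28e-04). In each of these 3 genes both HE2 samples were above both HE1 samples. Of the remaining members, Fli1 and Erg were at similar levels in HE1 and HE2. Fli1 had 56.9 and 68.8 FPKM in HE1 and 64.3 and 65.6 FPKM in HE2, and Erg had 25.3 and 26.6 FPKM in HE1 and 33.2 and 25.9 FPKM in HE2, with adjusted p of 0.945 and 0.751, and both groups overlapped. Gata2 had 16.4 and 17.3 FPKM in HE1 and 9.87 and 15 FPKM in HE2, where HE2 was lower in both samples but the difference of -0.46 was not called (adjusted p = 0.14). Tal1 was not called with any 1 of the 4 libraries left out (log2 fold change 0.96 to 1.3) and Runx1 not without HE1 replicate 2 or HE2 replicate 1 (1.71 to 3.45), and the number of heptad genes that rose was 2 without HE1 replicate 2 or HE2 replicate 1.

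Among later and lineage factors of blood, some changes were larger. Of 23 tested, 11 rose and 0 fell, with a median log2 fold change of 1.03. Myb, needed for definitive progenitors (chr10:21124935-21160984, reverse strand, GRCm38), had 1.32 and 0.852 FPKM in HE1 and 31.8 and 38.2 FPKM in HE2. Ikzf1, the zinc finger protein Ikaros of lymphoid and progenitor cells (chr11:11685003-11772926, forward strand), had 0.414 and 0.313 FPKM in HE1 and 14.2 and 12.9 FPKM in HE2. The samples of each population were close to each other and far from those of the other, with log2 fold changes of 4.91 (SE 0.41, adjusted p = 3.39e-07) and 4.88 (SE 0.44, adjusted p = 9.81e-07). Gfi1b, the repressor that shuts down endothelial genes together with Gfi1, had 0.756 and 0.900 FPKM in HE1 and 17.1 and 19.3 FPKM in HE2 (log2 fold change 4.30, SE 0.38, adjusted p = 5.68e-07). Gfi1 had 1.40 and 2.49 FPKM in HE1 and 3.87 and 5.75 FPKM in HE2, a smaller rise (log2 fold change 1.29, SE 0.35, adjusted p = 0.0128) that was not called without HE1 replicate 1 or HE2 replicate 2 (0.90 to 1.68). Spi1, the myeloid factor PU.1, had 0.289 and 0.280 FPKM in HE1 and 5.32 and 8.93 FPKM in HE2 (log2 fold change 4.18, SE 0.51, adjusted p = 2.10e-05). Gata1, its erythroid counterpart, had 0.187 and 0 FPKM in HE1 and 6.30 and 2.01 FPKM in HE2 (log2 fold change 4.44, SE 0.83, adjusted p = 9.21e-04). Both were thus near the bottom of the table in HE1 and measurable in all HE2 samples, and Gata1 was higher in replicate 1 where Spi1 was higher in replicate 2. Nfe2, the factor of platelet and globin genes, had 2.26 and 3.51 FPKM in HE1 and 42.5 and 37.7 FPKM in HE2 and rose by 3.78 (SE 0.24, adjusted p = 1.08e-08). Meis1, Ikzf2, Bcl11a and Klf1 also rose, with log2 fold changes of 1.43, 3.0, 2.94 and 2.58. For Klf1, the erythroid Krüppel-like factor, the samples were 0.381 and 0.0622 FPKM in HE1 and 3.96 and 0.591 FPKM in HE2, so replicate 1 of HE2 carried most of the difference, and the call was lost without that library or without HE1 replicate 2 (log2 fold change 1.31 to 3.86). The log2 fold change of Bcl11a was 2.59 to 3.29 with 1 library left out at a time, but it was not called without HE1 replicate 1, HE1 replicate 2 or HE2 replicate 2. The myeloid factors Cebpa and Irf8 were at most 0.420 FPKM in the 4 samples, and Cbfb, the partner of Runx1, had 55.4 and 53.3 FPKM in HE1 and 49.8 and 50.1 FPKM in HE2 and was not called (adjusted p = 0.564).

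The promoters of the factors with the largest changes are shown, searched for the motifs counted further on. By the rule for these sequences, the factors were Myb and Ikzf1 among the rises and Nkx2-5 and Hand1 among the falls, and Hand1 had no entry in the promoter table used. The sequences are those of RefSeq (GRCm38.p6), from 250 bases before to 50 after the transcription start, written 5′ to 3′ on the strand of the gene. They lie at chr10:21160935-21161234 on the reverse strand for Myb, chr11:11685675-11685974 on the forward strand for Ikzf1, and chr17:26841516-26841815 on the reverse strand for Nkx2-5. Capitals mark GGGCGG, the motif of Sp factors, on either strand. The GATA, Runx, AP-1, Tead and ETS motifs, spelled out beside their counts, had no match in these 3 windows.
Myb: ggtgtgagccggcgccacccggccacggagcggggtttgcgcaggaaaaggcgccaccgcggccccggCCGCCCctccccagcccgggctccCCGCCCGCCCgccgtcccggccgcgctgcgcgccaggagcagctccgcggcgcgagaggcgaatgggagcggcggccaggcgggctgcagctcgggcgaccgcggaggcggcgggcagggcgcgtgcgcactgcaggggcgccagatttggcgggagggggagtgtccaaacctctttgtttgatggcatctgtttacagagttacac
Ikzf1: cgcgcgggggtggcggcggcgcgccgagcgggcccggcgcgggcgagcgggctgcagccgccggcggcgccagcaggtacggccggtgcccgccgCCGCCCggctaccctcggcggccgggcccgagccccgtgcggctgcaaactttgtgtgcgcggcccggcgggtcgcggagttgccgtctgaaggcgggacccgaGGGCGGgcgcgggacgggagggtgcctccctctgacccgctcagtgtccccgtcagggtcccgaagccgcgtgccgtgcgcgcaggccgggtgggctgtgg
Nkx2-5: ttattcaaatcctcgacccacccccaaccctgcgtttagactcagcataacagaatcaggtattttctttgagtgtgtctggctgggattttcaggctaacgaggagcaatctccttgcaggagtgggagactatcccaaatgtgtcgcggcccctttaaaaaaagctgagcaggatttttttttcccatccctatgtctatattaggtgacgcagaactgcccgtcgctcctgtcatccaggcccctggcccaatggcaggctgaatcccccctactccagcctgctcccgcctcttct
The Myb window held 3 occurrences of GGGCGG, with 2 of them overlapping, Ikzf1 held 2 and Nkx2-5 held 0. A match describes the letters only and does not show that a factor binds.

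The signaling and cytoskeletal genes shared by blood cells showed the highest share of rises among the blood lists. Of 26 tested, 19 rose and 0 fell, and the median log2 fold change was 2.26. Was, the actin regulator mutated in Wiskott-Aldrich syndrome, had 2.0 and 1.65 FPKM in HE1 and 19.3 and 25.1 FPKM in HE2 (log2 fold change 3.53, SE 0.34, adjusted p = 2.09e-06). Vav1, a signaling exchange factor of blood cells, had 0.374 and 0.645 FPKM in HE1 and 3.02 and 3.69 FPKM in HE2 (log2 fold change 2.53, SE 0.32, adjusted p = 2.73e-05), and Coro1a, an actin-binding coronin, had 0.286 and 0.237 FPKM in HE1 and 2.27 and 4.84 FPKM in HE2 (log2 fold change 3.24, SE 0.47, adjusted p = 9.05e-05). Inpp5d, the lipid phosphatase SHIP, had 6.57 and 7.17 FPKM in HE1 and 28.4 and 46.0 FPKM in HE2 (log2 fold change 2.38, SE 0.33, adjusted p = 6.45e-05). In all of these both HE2 samples exceeded both HE1 samples, and the adaptor Tyrobp was listed at or near 0 in HE1 (0.00089 and 0 FPKM) while HE2 had 2.25 and 5.63 FPKM. Ptprc, the pan-leukocyte marker CD45, was listed at 0.00089 and 0 FPKM in HE1 and had 0.0583 and 0.227 FPKM in HE2, against 1.60 and 4.93 FPKM in progenitor cells. It was called, but not without HE1 replicate 1, HE1 replicate 2 or HE2 replicate 2. The 7 genes not called included Lcp1, with 4.91 and 5.58 FPKM in HE1 and 5.09 and 5.30 FPKM in HE2, and Lyn, with 25.3 and 40.8 FPKM in HE1 and 42.0 and 42.7 FPKM in HE2.

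Among calls with a mean above 3 FPKM and no overlap between the populations, the 15 largest rises included Myb and Ikzf1 and the following genes. Adgrg1, an adhesion receptor (GPR56) of blood stem cells (chr8:94974751-95014217, forward strand, GRCm38), had 1.39 and 0.907 FPKM in HE1 and 67.7 and 117 FPKM in HE2. Plek, the pleckstrin of platelets, had 0.706 and 1.16 FPKM in HE1 and 53.6 and 72.4 FPKM in HE2, and Itgb3, the beta-3 integrin that pairs with CD41 on platelets (chr11:104608000-104670476, forward strand), had 4.81 and 1.86 FPKM in HE1 and 111 and 127 FPKM in HE2. These 3 genes were at most 4.81 FPKM in any HE1 sample and at least 53.6 FPKM in every HE2 sample. Their log2 fold changes were 6.19 (SE 0.47), 5.95 (SE 0.39) and 5.26 (SE 0.40), with adjusted p of 1.40e-07, 1.29e-08 and 1.47e-07. F13a1, a chain of coagulation factor XIII, had 0.0483 and 0.112 FPKM in HE1 and 6.10 and 7.53 FPKM in HE2 (log2 fold change 5.28, SE 0.33, adjusted p = 1.08e-08). P2rx1, an ATP-gated channel of platelets, had 0.754 and 1.09 FPKM in HE1 and 22.1 and 38.5 FPKM in HE2 (log2 fold change 4.86, SE 0.39, adjusted p = 2.37e-07). The adaptor Sla had 0.0657 and 0.107 FPKM in HE1 and 5.51 and 5.50 FPKM in HE2 (log2 fold change 4.92, SE 0.43, adjusted p = 5.68e-07), and Ubash3a, a regulator of tyrosine kinase signaling, was at 0.00089 and 0 FPKM in HE1 and 2.55 and 3.57 FPKM in HE2. Hist1h4m, a histone H4 gene with near-identical copies, had 0.0477 and 0.0475 FPKM in HE1 and 0.150 and 58.1 FPKM in HE2, with most of the HE2 signal in replicate 2, and it was called (adjusted p = 0.0496) but not without HE1 replicate 1, HE1 replicate 2 or HE2 replicate 2 (log2 fold change 0.76 to 8.62).

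Of 15 cytokine receptors, 3 were higher (20.0%, against 11.7% of all genes tested) and 2 lower (13.3%, against 10.2%). Fewer were lower without HE1 replicate 1 or HE2 replicate 2. Csf3r, the G-CSF receptor, was listed at 0.00089 and 0.0231 FPKM in HE1 and had 1.57 and 3.69 FPKM in HE2. Csf2rb, the shared chain of the GM-CSF, IL-3 and IL-5 receptors, had 1.27 and 2.60 FPKM in HE1 and 4.56 and 7.63 FPKM in HE2 (log2 fold change 1.64, SE 0.41, adjusted p = 0.00725), but was not called without HE1 replicate 1 or HE2 replicate 2 (log2 fold change 1.16 to 2.13). Epor, the erythropoietin receptor, had 1.12 and 2.83 FPKM in HE1 and 3.34 and 2.41 FPKM in HE2 and was not called (adjusted p = 0.285). Il6st, the signal chain gp130, fell from 36.3 and 35.2 to 24.0 and 23.0 FPKM (log2 fold change -0.60, SE 0.12, adjusted p = 0.00189).

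Genes of 3 blood lineages were higher in HE2 at the same time. Of 25 erythroid genes tested, 12 rose, 0 fell, and the median log2 fold change was 1.17. Hbb-bh1, an embryonic beta-like globin, had 55.1 and 26.5 FPKM in HE1 and 677 and 349 FPKM in HE2 (log2 fold change 3.67, SE 0.64, adjusted p = 5.21e-04), and Hba-x, the zeta globin, had 36.7 and 6.18 FPKM in HE1 and 231 and 85.8 FPKM in HE2 (log2 fold change 3.21, SE 0.68, adjusted p = 0.00227). Hbb-y, the epsilon globin, had 8.64 and 7.75 FPKM in HE1 and 59.7 and 44.6 FPKM in HE2 (log2 fold change 2.64, SE 0.61, adjusted p = 0.00427). All 3 were already measurable in HE1, were higher in both HE2 samples, and were between 447 and 10322 FPKM in progenitor cells. The adult globins Hba-a2 and Hbb-bs stayed at or below 0.579 FPKM in the 4 samples. Hba-a1 had 3.79 and 0 FPKM in HE1 and 31.5 and 24.5 FPKM in HE2, and Hbb-b1 had 0.00089 and 0.555 FPKM in HE1 and 10.3 and 3.95 FPKM in HE2, but reads of near-identical globin copies can be split between genes, so these values are uncertain. Of the globins, Hba-a1 was not called without HE1 replicate 2 or HE2 replicate 1 (log2 fold change 2.84 to 8.12), Hbb-b1 not without HE1 replicate 1, HE2 replicate 1 or HE2 replicate 2 (3.31 to 6.0) and Hba-x not without HE1 replicate 2 (1.94 to 4.49).

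Slc4a1, the band 3 anion exchanger, had 0.0421 and 0.0526 FPKM in HE1 and 1.09 and 0.364 FPKM in HE2 and was called. Epb42, the membrane protein 4.2, had 0.168 and 0.188 FPKM in HE1 and 1.86 and 1.5 FPKM in HE2 (log2 fold change 2.67, SE 0.31, adjusted p = 1.37e-05). Car2, a carbonic anhydrase, had 29.0 and 23.7 FPKM in HE1 and 102 and 100.5 FPKM in HE2, with replicates so close that its SE was 0.13 for a log2 fold change of 1.95 (adjusted p = 2.09e-08). Tfrc, the transferrin receptor, had 11.8 and 15.9 FPKM in HE1 and 32.9 and 28.9 FPKM in HE2 (log2 fold change 1.17, SE 0.24, adjusted p = 0.00186). Of 12 heme synthesis genes, 2 rose (16.7%, against 11.7% of all genes tested) and 1 fell, with a median of 0.26, and 1 rose without HE1 replicate 1, HE2 replicate 1 or HE2 replicate 2. Alas2, the erythroid rate-limiting enzyme of the pathway, had 3.89 and 3.69 FPKM in HE1 and 11.0 and 5.96 FPKM in HE2 and was not called (adjusted p = 0.0932). Its ubiquitous form Alas1 fell from 16.1 and 20.2 to 10.2 and 12.4 FPKM (log2 fold change -0.68). The call of Alas1 was lost without HE1 replicate 2 or HE2 replicate 1 (log2 fold change -0.84 to -0.52) and that of Slc4a1 without HE1 replicate 1 or HE2 replicate 1 (1.66 to 3.02).

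Of 21 megakaryocyte and platelet genes, 11 rose and 0 fell, with a median log2 fold change of 1.29. Mmrn1, a platelet granule protein, was listed at 0.00089 and 0 FPKM in HE1 and had 1.87 and 3.52 FPKM in HE2. Pf4, the platelet chemokine, was listed at 0.00089 and 0 FPKM in HE1 and had 1.35 and 0.733 FPKM in HE2. Rab27b, a granule trafficking protein, had 3.93 and 5.81 FPKM in HE1 and 23.9 and 22.3 FPKM in HE2 (log2 fold change 2.25, SE 0.35, adjusted p = 2.11e-04). The subunits of the von Willebrand receptor were apart, since Gp1ba had 2.21 and 2.32 FPKM in HE1 and 4.34 and 4.49 FPKM in HE2 (log2 fold change 0.93, SE 0.27, adjusted p = 0.018), while Gp9 with 0.358 and 0.139 FPKM in HE1 and 0.385 and 0.796 FPKM in HE2 and Gp1bb with 0.157 and 0.322 FPKM in HE1 and 0.105 and 0.124 FPKM in HE2 were not called. Gp1ba was not called with any 1 of the 4 libraries left out (log2 fold change 0.90 to 0.97), and the number of list genes that rose was 7 without HE2 replicate 1.

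Of 13 myeloid genes tested, 5 rose and 1 fell, with a median log2 fold change of 0.83. Mpo, the peroxidase of neutrophil granules, had 0.477 and 0.949 FPKM in HE1 and 15.3 and 24.7 FPKM in HE2 (log2 fold change 4.65, SE 0.47, adjusted p = 3.09e-06). Lyz2, the lysozyme of myeloid cells, had 0.478 and 0.148 FPKM in HE1 and 7.56 and 15.4 FPKM in HE2 (log2 fold change 4.85, SE 0.83, adjusted p = 4.44e-04), and Alox5ap, a protein of leukotriene synthesis, had 5.32 and 5.29 FPKM in HE1 and 27.0 and 38.8 FPKM in HE2 (log2 fold change 2.59, SE 0.43, adjusted p = 3.56e-04). Replicate 2 was the higher HE2 sample in these 3 genes, and both HE2 samples were above both HE1 samples. Itgam (CD11b) and Cx3cr1 stayed at or below 0.117 FPKM, and Csf1, a cytokine made by stroma and endothelium, fell from 35.6 and 19.5 to 9.26 and 4.92 FPKM (log2 fold change -1.95). Csf1 was not called without HE1 replicate 1 or HE2 replicate 2 (log2 fold change -2.40 to -1.5), and the number of myeloid genes that rose was 3 without HE1 replicate 2.

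**Figure D2:**
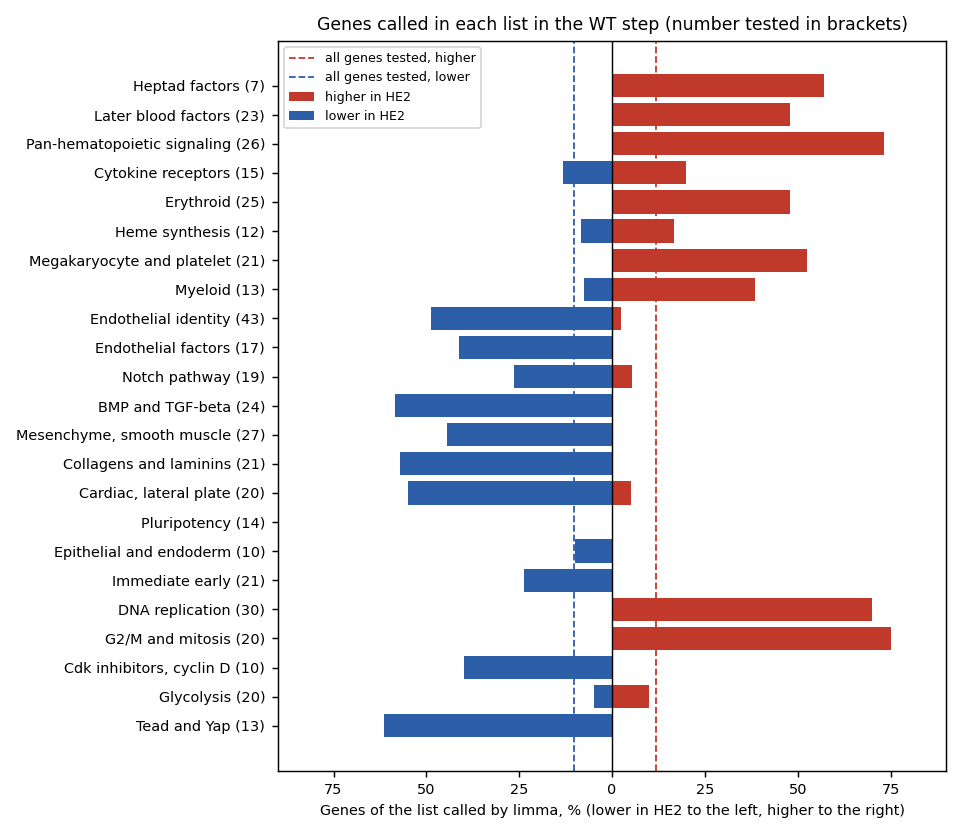
Share of each gene list (rows, number tested in brackets) called by limma from WT HE1 to WT HE2, in percent, with genes lower in HE2 to the left and higher to the right. Dashed lines mark 10.2% lower and 11.7% higher among all genes tested, and the blood, replication and mitosis lists reach to the right where endothelial, matrix and cardiac lists reach to the left.

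Many endothelial genes fell in HE2, and several of them stayed abundant there. Of 43 endothelial receptors, junction and surface genes tested, 21 fell, 1 rose and 21 were not called, with a median log2 fold change of -0.81. Cdh5, the cadherin of endothelial junctions, had 402 and 501 FPKM in HE1 and 221 and 231 FPKM in HE2. Both HE2 samples were below both HE1 samples (log2 fold change -0.99, SE 0.30, adjusted p = 0.0251). Eng, a co-receptor for TGF-beta and BMP9, had 164 and 173 FPKM in HE1 and 64.4 and 65.7 FPKM in HE2 (log2 fold change -1.37, SE 0.21, adjusted p = 1.51e-04). Nos3, the endothelial nitric oxide synthase (chr5:24364810-24384474, forward strand, GRCm38), had 33.9 and 43.4 FPKM in HE1 and 3.86 and 2.34 FPKM in HE2 and was among the largest falls of the table (log2 fold change -3.63, SE 0.69, adjusted p = 0.00101). Robo4, a guidance receptor of endothelium, had 15.2 and 17.4 FPKM in HE1 and 3.57 and 4.03 FPKM in HE2 (log2 fold change -2.07, SE 0.42, adjusted p = 0.00175), and Stab1, a scavenger receptor of sinusoidal endothelium, had 13.6 and 16.0 FPKM in HE1 and 2.49 and 2.46 FPKM in HE2 (log2 fold change -2.53, SE 0.38, adjusted p = 1.31e-04). Efnb2, the arterial ephrin, had 38.3 and 34.8 FPKM in HE1 and 11.0 and 10.6 FPKM in HE2 (log2 fold change -1.75, SE 0.33, adjusted p = 9.72e-04), and its venous receptor Ephb4 had 75.9 and 104 FPKM in HE1 and 44.4 and 68.5 FPKM in HE2 (log2 fold change -0.69, SE 0.19, adjusted p = 0.015). The connexin Gja5 of arteries had 2.94 and 1.95 FPKM in HE1 and 0.506 and 0.146 FPKM in HE2 (log2 fold change -2.69, SE 0.41, adjusted p = 1.52e-04). In each of these genes the populations did not overlap. Cdh5 was not called with any 1 of the 4 libraries left out (log2 fold change -1.15 to -0.83) and Ephb4 not without HE1 replicate 2 or HE2 replicate 1 (-1.0 to -0.37), and the number of list genes that fell was 13 without HE1 replicate 2 or HE2 replicate 1.

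Several defining endothelial genes were lower on average in HE2 without passing the test. Pecam1 (CD31) had 202 and 331 FPKM in HE1 and 145 and 179 FPKM in HE2 (adjusted p = 0.0896), Esam had 76.3 and 125 FPKM in HE1 and 44.9 and 81.1 FPKM in HE2 (adjusted p = 0.238), and Tie1 had 104 and 211 FPKM in HE1 and 75.9 and 155 FPKM in HE2 (adjusted p = 0.529). In Esam and Tie1, replicate 2 was the higher sample in both populations, so the populations overlapped. Kdr, the VEGF receptor Flk1 itself, had 209 and 303 FPKM in HE1 and 127 and 174 FPKM in HE2 (log2 fold change -0.76, SE 0.26, adjusted p = 0.0429). Cd34, a mucin of endothelium and of blood progenitors, went the other way, with 139 and 153 FPKM in HE1 and 248 and 353 FPKM in HE2, but was not called (adjusted p = 0.128). Lyve1, a hyaluronan receptor of lymphatic and yolk sac endothelium, was the gene of this list that rose, with 8.55 and 9.26 FPKM in HE1 and 47.3 and 33.2 FPKM in HE2 (log2 fold change 2.14, SE 0.31, adjusted p = 9.87e-05). Kdr was not called without HE1 replicate 2 or HE2 replicate 1 (log2 fold change -1.03 to -0.50).

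Of 17 endothelial transcription factors, 7 fell and 0 rose, with a median log2 fold change of -0.64. Sox17, the factor of arterial and hemogenic endothelium, had 11.1 and 13.2 FPKM in HE1 and 2.34 and 2.75 FPKM in HE2 (log2 fold change -2.21, SE 0.38, adjusted p = 5.32e-04). Its relative Sox7 had 39.1 and 44.9 FPKM in HE1 and 13.8 and 10.4 FPKM in HE2 (log2 fold change -1.79, SE 0.45, adjusted p = 0.00754), and the third SoxF gene, Sox18, had 45.7 and 42.7 FPKM in HE1 and 25.4 and 35.9 FPKM in HE2 and was not called (adjusted p = 0.462). Foxc2, a forkhead factor of arterial and lymphatic vessels, had 1.59 and 2.28 FPKM in HE1 and 0.193 and 0.138 FPKM in HE2 (log2 fold change -2.92, SE 0.51, adjusted p = 5.03e-04). Etv2, which starts the endothelial program in mesoderm, had 5.43 and 7.80 FPKM in HE1 and 8.41 and 9.69 FPKM in HE2 (adjusted p = 0.516), and Ets2 had 62.6 and 101 FPKM in HE1 and 59.8 and 99.3 FPKM in HE2 (adjusted p = 0.964). Ets1, a relative of Ets2, had 120.5 and 149 FPKM in HE1 and 60.0 and 66.5 FPKM in HE2 (log2 fold change -1.08). The call of Sox7 was lost without HE2 replicate 2 (log2 fold change -2.0 to -1.59) and that of Ets1 with any 1 of the 4 libraries left out (-1.23 to -0.93), and the number of factors that fell was 4 without HE1 replicate 2 or HE2 replicate 1 or HE2 replicate 2.

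In Notch signaling, which specifies arterial fate, the receptors Notch1, Notch3 and Notch4 and an arterial ligand fell, and the receptor Notch2 was not called. Of 19 genes, 5 fell (26.3%, against 10.2% of all genes tested) and 1 rose (5.26%, against 11.7%), with a median of -0.87. Notch1 had 52.6 and 61.1 FPKM in HE1 and 20.8 and 26.1 FPKM in HE2 (log2 fold change -1.28, SE 0.20, adjusted p = 2.34e-04), and Notch4, the endothelial receptor, had 10.4 and 13.8 FPKM in HE1 and 2.31 and 3.08 FPKM in HE2 (log2 fold change -2.12, SE 0.39, adjusted p = 7.30e-04). The ligand Dll4 had 5.07 and 3.10 FPKM in HE1 and 1.06 and 0.441 FPKM in HE2 (log2 fold change -2.36, SE 0.38, adjusted p = 2.47e-04), and the target Hey2 had 7.36 and 8.73 FPKM in HE1 and 1.65 and 1.71 FPKM in HE2 (log2 fold change -2.19, SE 0.45, adjusted p = 0.00189). These 4 genes were lower in every HE2 sample. Hes1, another target, had 16.1 and 32.9 FPKM in HE1 and 7.81 and 40.5 FPKM in HE2 and was not called, with replicates farther apart than the populations, and Jag1 had 7.61 and 8.60 FPKM in HE1 and 4.17 and 4.43 FPKM in HE2 (adjusted p = 0.0923). Mfng, a glycosyltransferase that modifies Notch receptors, rose, with 2.04 and 2.19 FPKM in HE1 and 9.02 and 16.5 FPKM in HE2 (log2 fold change 2.47, SE 0.39, adjusted p = 2.34e-04).

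Of 24 genes of BMP and TGF-beta signaling, 14 fell and 0 rose, with a median of -0.95. The falls covered ligands, receptors, signal transducers and targets. Bmp6 had 41.0 and 36.1 FPKM in HE1 and 10.2 and 6.82 FPKM in HE2 (log2 fold change -2.19, SE 0.48, adjusted p = 0.00332), whereas the ligands Bmp2 and Bmp4 were not called (adjusted p = 0.837 and 0.264). The type I receptor Acvr1 had 13.2 and 12.9 FPKM in HE1 and 3.96 and 3.78 FPKM in HE2 (log2 fold change -1.73, SE 0.24, adjusted p = 5.90e-05), and Acvrl1, the endothelial receptor ALK1, had 36.7 and 51.0 FPKM in HE1 and 12.9 and 15.3 FPKM in HE2 (log2 fold change -1.61, SE 0.45, adjusted p = 0.0148). Smad1, which carries the BMP signal, had 29.2 and 30.9 FPKM in HE1 and 20.5 and 18.7 FPKM in HE2 (log2 fold change -0.62, SE 0.14, adjusted p = 0.00461). The inhibitor Smad7, itself induced by the pathway, had 32.9 and 38.6 FPKM in HE1 and 11.5 and 14.8 FPKM in HE2 (log2 fold change -1.45, SE 0.18, adjusted p = 2.10e-05). Among targets of BMP, Id1 had 118 and 93.2 FPKM in HE1 and 56.9 and 35.7 FPKM in HE2. Id3 had 136 and 150.3 FPKM in HE1 and 71.9 and 68.6 FPKM in HE2. Both were lower in each HE2 sample (log2 fold changes -1.21 and -1.03), while Id2 and Bambi of the same list were not called. Tgfb1, the ligand made by many blood cells, had 22.5 and 16.3 FPKM in HE1 and 27.6 and 24.3 FPKM in HE2 and was not called (adjusted p = 0.333). Id3 was not called with any 1 of the 4 libraries left out (log2 fold change -1.10 to -0.96), Id1 not without HE1 replicate 1, HE1 replicate 2 or HE2 replicate 2 (-1.55 to -0.88) and Acvrl1 not without HE1 replicate 2 or HE2 replicate 1 (-1.85 to -1.38). The number of genes of this list that fell was 8 without HE2 replicate 2.

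Mesenchymal and smooth muscle genes fell in 12 of 27 cases and rose in 0, with a median log2 fold change of -1.52. Vim, the intermediate filament of mesenchyme and endothelium, had 2259 and 2745 FPKM in HE1 and 1057 and 1125 FPKM in HE2 (log2 fold change -1.19, SE 0.18, adjusted p = 1.55e-04). Cdh2 (N-cadherin) had 49.7 and 38.7 FPKM in HE1 and 17.7 and 12.7 FPKM in HE2 (log2 fold change -1.55, SE 0.20, adjusted p = 3.22e-05), and Tgfbi, a secreted target of TGF-beta, had 28.0 and 24.0 FPKM in HE1 and 5.37 and 2.42 FPKM in HE2 (log2 fold change -2.81, SE 0.65, adjusted p = 0.00458). The contractile genes of smooth muscle were uneven between replicates. Acta2 had 1138 and 224 FPKM in HE1 and 257 and 34.8 FPKM in HE2, and Tagln had 517 and 117 FPKM in HE1 and 167 and 31.7 FPKM in HE2, so replicate 1 was several times higher than replicate 2 in both populations and neither gene was called (adjusted p = 0.131 and 0.256). Postn and Col1a1 showed the same pattern, with 89.8 and 6.74 FPKM in HE1 and 17.3 and 1.39 FPKM in HE2 for Postn and 95.0 and 6.08 FPKM in HE1 and 11.9 and 0.938 FPKM in HE2 for Col1a1. The call of Tgfbi was lost without HE2 replicate 2 (log2 fold change -3.37 to -2.25), and the number of list genes that fell was 5 without HE2 replicate 2.

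Basement membrane genes, which tie endothelium to its surface, fell in 12 of 21 cases and rose in 0, with a median of -1.55. Col4a1, a chain of collagen IV, had 700.0 and 850.2 FPKM in HE1 and 224 and 305 FPKM in HE2 (log2 fold change -1.56, SE 0.25, adjusted p = 2.39e-04). Lamb1, a laminin chain, had 80.8 and 66.3 FPKM in HE1 and 30.5 and 21.4 FPKM in HE2 (log2 fold change -1.52, SE 0.21, adjusted p = 6.79e-05), and Hspg2, the proteoglycan perlecan, had 146 and 139 FPKM in HE1 and 45.2 and 52.6 FPKM in HE2 (log2 fold change -1.55, SE 0.28, adjusted p = 6.41e-04). Nid1, which links laminin and collagen, had 146 and 147 FPKM in HE1 and 46.8 and 30.5 FPKM in HE2 (log2 fold change -1.95, SE 0.46, adjusted p = 0.00552), but was not called without HE2 replicate 2 (log2 fold change -2.26 to -1.64). Fn1 and Sparc were lower in both HE2 samples but not called, with 925 and 936 FPKM in HE1 and 575 and 591 FPKM in HE2 for Fn1 (adjusted p = 0.129) and 266 and 277 FPKM in HE1 and 126 and 125 FPKM in HE2 for Sparc (adjusted p = 0.143).

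Factors of heart and lateral plate mesoderm were expressed in HE1 and lower in HE2. Of 20 genes, 11 fell and 1 rose, with a median of -1.56. Gata4, a factor of heart and endoderm, had 48.1 and 57.7 FPKM in HE1 and 11.4 and 10.7 FPKM in HE2 (log2 fold change -2.24, SE 0.36, adjusted p = 2.66e-04). Tbx20, a T-box factor of the heart, had 55.7 and 68.1 FPKM in HE1 and 13.0 and 4.82 FPKM in HE2 (log2 fold change -2.94, SE 0.64, adjusted p = 0.00296), and Hand2 had 40.2 and 50.2 FPKM in HE1 and 11.5 and 11.0 FPKM in HE2 (log2 fold change -1.99, SE 0.40, adjusted p = 0.00157). Nkx2-5, the heart homeobox factor (chr17:26838664-26845009, reverse strand, GRCm38), had 2.75 and 2.75 FPKM in HE1 and 0.0665 and 0.0847 FPKM in HE2 and had the largest fall among the factors (log2 fold change -4.02, SE 0.71, adjusted p = 5.84e-04). Hand1 had 49.5 and 14.4 FPKM in HE1 and 7.03 and 0.543 FPKM in HE2 (log2 fold change -3.65, SE 1.22, adjusted p = 0.0387), with replicate 1 higher in both populations. All 5 were lower in each HE2 sample. Contractile genes of the heart were uneven, since Myh7, a myosin heavy chain, fell from 0.662 and 0.524 to 0.0646 and 0.0438 FPKM, while Tnnt2 had 5.83 and 13.6 FPKM in HE1 and 3.63 and 3.54 FPKM in HE2 (adjusted p = 0.235) and Actc1 had 33.4 and 2.01 FPKM in HE1 and 9.88 and 0.652 FPKM in HE2 (adjusted p = 0.568). Ryr2, a calcium channel, was the member that rose, to 0.575 and 1.41 FPKM from 0.112 and 0.112 FPKM, but not without HE2 replicate 2 (log2 fold change 1.67 to 2.83). Tbx20 was not called without HE2 replicate 2 (log2 fold change -3.65 to -2.24) and Hand1 not without HE1 replicate 1 or HE2 replicate 2 (-5.38 to -1.91), and the number of genes of the list that fell was 7 without HE2 replicate 2.

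Tead factors and their cofactors, which drive genes of spread and adherent cells, fell in 8 of 13 cases and rose in 0, with a median of -1.15. Yap1 had 44.7 and 48.1 FPKM in HE1 and 20.6 and 21.1 FPKM in HE2 (log2 fold change -1.15, SE 0.14, adjusted p = 2.30e-05), Tead1 had 33.4 and 21.2 FPKM in HE1 and 10.1 and 5.48 FPKM in HE2 (log2 fold change -1.82, SE 0.40, adjusted p = 0.0034), and Amotl1, an angiomotin, had 34.0 and 34.8 FPKM in HE1 and 8.99 and 6.31 FPKM in HE2 (log2 fold change -2.18, SE 0.40, adjusted p = 7.30e-04). The targets Cyr61 and Ctgf, counted with the immediate early genes, fell from 152 and 108 to 57.1 and 49.97 FPKM and from 82.0 and 62.2 to 22.4 and 21.1 FPKM. Of the 21 immediate early genes, 5 fell (23.8%, against 10.2% of all genes tested) and 0 rose. Beside Cyr61 and Ctgf, Fos, Fosl2 and Dusp1 fell, with log2 fold changes of -1.23, -1.34 and -0.96. Jun had 64.5 and 74.2 FPKM in HE1 and 44.6 and 64.5 FPKM in HE2. Egr1 had 17.7 and 23.2 FPKM in HE1 and 15.9 and 21.3 FPKM in HE2, and neither was called. Fos was not called with any 1 of the 4 libraries left out (log2 fold change -1.32 to -1.14). Fosl2 was not called without HE1 replicate 1 (-1.63 to -1.05), nor Dusp1 without HE1 replicate 2 or HE2 replicate 1 (-1.39 to -0.53). Tead1 was not called without HE1 replicate 1 or HE2 replicate 2 (log2 fold change -2.26 to -1.39), Ctgf not without HE1 replicate 1, HE2 replicate 1 or HE2 replicate 2 (-1.91 to -1.51) and Cyr61 not without HE1 replicate 1 (-1.51 to -1.01). The number that fell was 5 without HE1 replicate 1 or HE2 replicate 2 for the Tead list and 2 without HE1 replicate 1 or HE2 replicate 1 and 3 without HE1 replicate 2 for the immediate early genes.

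By the same rule, the 15 largest falls included Hand1, Nos3 and Tbx20 and the following genes. Pdlim3, a LIM protein of actin fibres, had 63.4 and 170.2 FPKM in HE1 and 7.96 and 5.34 FPKM in HE2 (log2 fold change -3.97, SE 0.95, adjusted p = 0.00582). Erbb2, a receptor tyrosine kinase, had 7.0 and 8.31 FPKM in HE1 and 1.11 and 0.571 FPKM in HE2 (log2 fold change -3.10, SE 0.65, adjusted p = 0.00227), Ccdc80, a matrix protein, had 19.5 and 29.5 FPKM in HE1 and 3.86 and 2.04 FPKM in HE2 (log2 fold change -3.05, SE 0.64, adjusted p = 0.00225), and Tcf7l1, a repressor of Wnt targets, had 7.38 and 5.37 FPKM in HE1 and 0.944 and 0.474 FPKM in HE2 (log2 fold change -3.05, SE 0.49, adjusted p = 2.83e-04). That all 4 were lower in both HE2 samples was set by the rule. Pdlim3 was not called without HE1 replicate 2 (log2 fold change -4.69 to -3.26). Eif3j2 was listed at 0 and 0.00073 FPKM in HE2 with 17.5 and 18.1 FPKM in HE1 and 33.1 and 23.2 FPKM in progenitor cells, while its near-identical copy Eif3j1 had 3.96 and 0.270 FPKM in HE1 and 31.0 and 16.9 FPKM in HE2, so the split of reads between the copies is uncertain. Eif3j2 was called lower (adjusted p = 0.0235) but not with any 1 of the 4 libraries left out. Eif3j1 is named after its values were seen.

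The other 7 of these falls were spread over several functions. Pgbd5, a gene derived from a transposase, had 2.46 and 5.71 FPKM in HE1 and 0.222 and 0.752 FPKM in HE2 (log2 fold change -2.88, SE 0.42, adjusted p = 1.03e-04). Foxf1, a forkhead factor of lateral plate mesoderm, had 7.02 and 6.84 FPKM in HE1 and 0.977 and 0.763 FPKM in HE2 (log2 fold change -2.87, SE 0.67, adjusted p = 0.00475). Ctsh, a lysosomal protease, fell from 7.91 and 22.7 to 1.21 and 1.48 FPKM, and Dab2, an endocytic adaptor, from 16.9 and 11.4 to 2.94 and 1.05 FPKM. The rule likewise set that these 4 were lower in both HE2 samples. The matrix genes Col3a1 and Tnc fell from 19.4 and 11.6 to 2.55 and 1.04 FPKM and from 63.8 and 32.3 to 10.6 and 3.38 FPKM, and Plat, the tissue plasminogen activator, from 19.5 and 18.8 to 3.65 and 1.68 FPKM. Plat was not called with any 1 of the 4 libraries left out (log2 fold change -3.43 to -2.36), Tnc not without HE1 replicate 1, HE1 replicate 2 or HE2 replicate 2 (-3.71 to -2.09), Col3a1 not without HE1 replicate 1 or HE2 replicate 2 (-3.72 to -2.51), Dab2 not without HE1 replicate 1 or HE2 replicate 2 (-3.60 to -2.2) and Ctsh not without HE1 replicate 2 (-3.99 to -2.48).

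Genes of the cell cycle rose together by small amounts. Of 30 genes of DNA replication and S phase, 21 rose and 0 fell, with a median of 0.61, and of 20 genes of G2/M and mitosis, 15 rose and 0 fell, with a median of 0.49. Mcm7, a subunit of the replicative helicase, had 73.9 and 75.8 FPKM in HE1 and 113 and 142 FPKM in HE2 (log2 fold change 0.76, SE 0.14, adjusted p = 6.92e-04). Mcm10 had 15.8 and 13.8 FPKM in HE1 and 33.0 and 28.7 FPKM in HE2 (log2 fold change 1.06, SE 0.12, adjusted p = 1.29e-05), and Tk1, the thymidine kinase of S phase, had 26.5 and 22.9 FPKM in HE1 and 54.3 and 52.6 FPKM in HE2 (log2 fold change 1.11, SE 0.12, adjusted p = 9.18e-06). Ccna2, the cyclin of S phase and G2, had 48.7 and 46.8 FPKM in HE1 and 71.7 and 65.7 FPKM in HE2 (log2 fold change 0.52, SE 0.10, adjusted p = 7.30e-04), and Aurkb, a mitotic kinase, had 28.8 and 28.4 FPKM in HE1 and 41.9 and 49.1 FPKM in HE2 (log2 fold change 0.66, SE 0.10, adjusted p = 1.37e-04). Both HE2 samples exceeded both HE1 samples in these 5 genes. Of 10 cell cycle inhibitors and D cyclins, 4 fell and 0 rose. With 1 library left out, the number of replication genes that rose was 11 without HE1 replicate 2 and 13 without HE2 replicate 1, that of mitotic genes 7 without HE1 replicate 2 and 8 without HE2 replicate 1, and the number of inhibitors and D cyclins that fell 2 without HE1 replicate 1 or HE2 replicate 1. By the fold rule 4 replication genes and 0 mitotic genes were higher. The Cdk inhibitor Cdkn1c (p57) had 29.1 and 26.3 FPKM in HE1 and 5.16 and 3.18 FPKM in HE2 (log2 fold change -2.74, SE 0.40, adjusted p = 1.06e-04), and the cyclin Ccnd1 had 48.4 and 39.8 FPKM in HE1 and 16.8 and 14.1 FPKM in HE2 (log2 fold change -1.51, SE 0.33, adjusted p = 0.00269).

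Of 20 glycolytic genes, 2 rose and 1 fell, with a median of 0.09 on the log2 scale. Both shares were below those of all genes tested, of which 11.7% rose and 10.2% fell. With 1 library left out, 0 rose without HE1 replicate 1 or HE2 replicate 1 and 1 without HE1 replicate 2 or HE2 replicate 2. Gapdh had 284 and 239 FPKM in HE1 and 311 and 273 FPKM in HE2 and was not called (adjusted p = 0.497). The gene that fell, the glucose transporter Slc2a1, had 382 and 102 FPKM in HE1 and 91.1 and 33.3 FPKM in HE2, with replicate 1 higher in both populations, and was not called without HE1 replicate 1 or HE2 replicate 2 (log2 fold change -2.79 to -0.89). Of 14 pluripotency genes, 0 were called, and Pou5f1 (Oct4) was at most 0.215 FPKM in the 4 samples.

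A set of 186 genes, 1.28% of those tested, had both HE2 samples above all 8 other WT samples and a mean above 3 FPKM in HE2. Since HE1 and HE2 samples chose them, their WT values are a description. Ranked by the ratio to the next highest population, Hbb-b1 came first, followed by Lyve1, and these genes were named after their values were seen. Kcnk9, a potassium channel, had 5.54 and 9.34 FPKM in HE1 and 21.8 and 44.5 FPKM in HE2 and 3.76 and 3.86 FPKM in progenitor cells. Cyp26b1, an enzyme that degrades retinoic acid, had 0.744 and 0.803 FPKM in HE1 and 4.46 and 5.55 FPKM in HE2 and 1.02 and 1.15 FPKM in progenitor cells. Samsn1, an adaptor of blood cells, had 14.6 and 20.0 FPKM in HE1 and 58.6 and 54.5 FPKM in HE2 and 17.1 and 24.1 FPKM in progenitor cells. Gfi1 was also in the set, with 1.47 and 1.89 FPKM in progenitor cells, whereas Gfi1b went on to 55 and 56.2 FPKM. In samples that did not enter the choice, 105 of the 186 genes were highest in HE2 of Sp1_deltaDBD cells (56.5%, against 7.50% of all genes tested) and 82 in HE2 of Sp3KO cells (44.1%, against 7.64%).

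**Figure D3:**
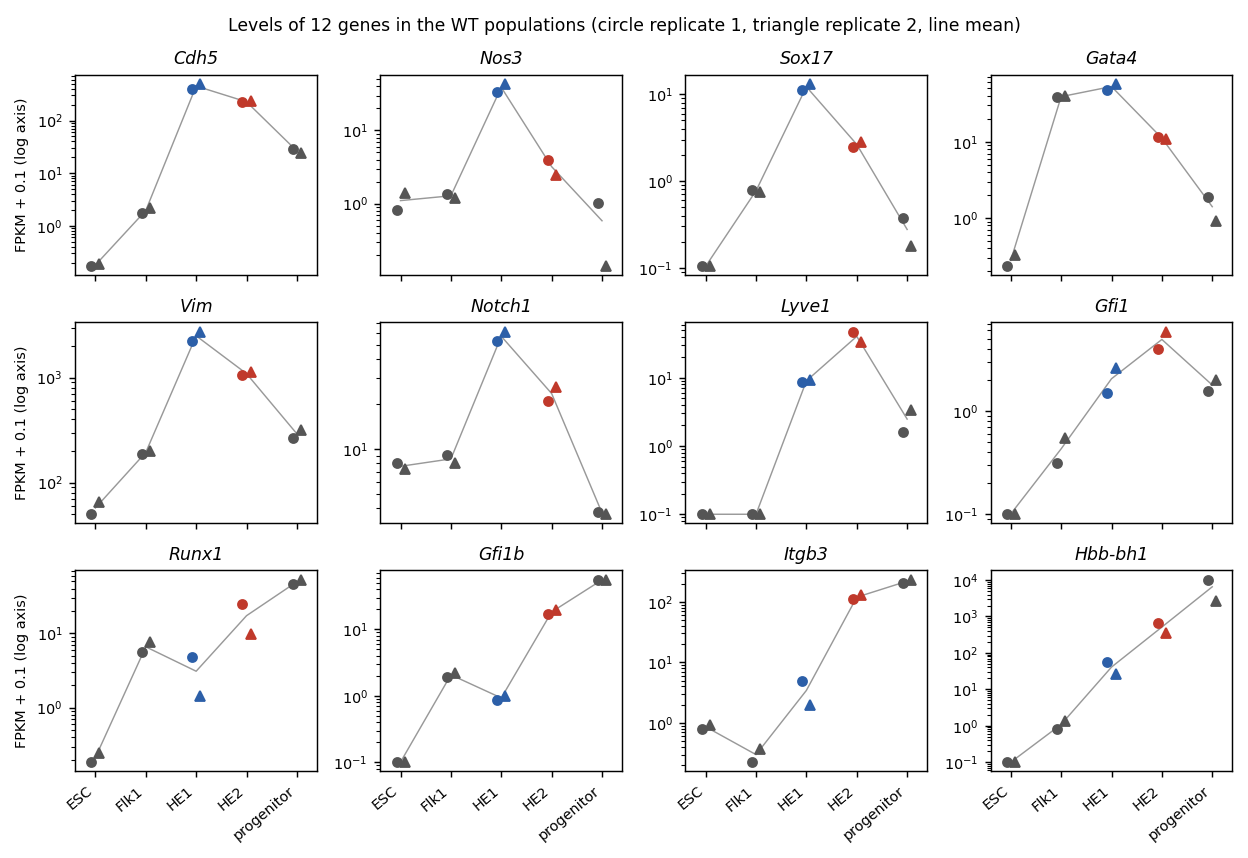
FPKM + 0.1 of 12 genes (log axes) in the 2 samples of each WT population, with circles for replicate 1, triangles for replicate 2 and a line through the means. Cdh5, Nos3, Sox17, Gata4, Vim and Notch1 peak in HE1, Lyve1 and Gfi1 peak in HE2, and Runx1, Gfi1b, Itgb3 and Hbb-bh1 rise on to progenitor cells.

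The neighbouring steps share the HE1 or HE2 samples with this one, so their values are only set side by side. From Flk1+ cells to HE1, 7696 genes were called (53.0% of those tested), and from HE2 to progenitor cells, 1923 (13.2%), of which 793 were higher (5.46%) and 1130 lower (7.78%). Cdh5 changed by 7.86 on the log2 scale from Flk1+ cells to HE1, by -0.99 from HE1 to HE2 and by -3.11 from HE2 to progenitor cells. Gata4 changed by 0.43, -2.24 and -3.08 over the same 3 steps. Runx1 changed by -1.32, 2.58 and 1.66, Itgb3 by 3.42, 5.26 and 0.88, and Hbb-bh1 by 5.18, 3.67 and 3.45. From HE2 to progenitor cells, Cdh5 and Gata4 fell more than from HE1 to HE2, and Runx1, Itgb3 and Hbb-bh1 rose less. Of the 1478 genes that fell, 963 were highest in HE1 among the 5 WT populations (65.2%, against 20.5% of all genes tested). None of them can be highest in HE2. None of the 1703 genes that rose can be highest in HE1. Of them, 623 were highest in progenitor cells (36.6%, against 19.8% of all genes tested) and 646 in ESC (37.9%, against 30.1%). Another 263 were highest in Flk1+ cells (15.4%, against 21.5%) and 171 in HE2 (10.04%, against 8.07%). The choice by direction sets part of these shares, so they are a description.

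Summed levels of the lists showed which differences followed the replicate number. The epithelial and endoderm list summed to 828 and 90.2 FPKM in the HE1 replicates and 246 and 17.7 FPKM in the HE2 replicates, with Krt8 and Krt18, keratins of simple epithelia, as its main part. In this list 1 of 10 genes was called, and Epcam stayed at or below 0.114 FPKM in the 4 samples. The mesenchymal list summed to 6361 and 4468 FPKM in HE1 and 2449 and 1806 FPKM in HE2. The erythroid list summed to 209 and 148 FPKM in HE1 and 1280.3 and 773 FPKM in HE2. In these 3 lists replicate 1 was the higher sample in both populations, and in the endothelial list, with 3398 and 4556 FPKM in HE1 and 2116 and 2662 FPKM in HE2, replicate 2 was. The populations did not overlap in any of these sums except that of the epithelial list, where HE2 replicate 1 exceeded HE1 replicate 2. The part of these differences between replicates in the calls was not tested.

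**Figure D4:**
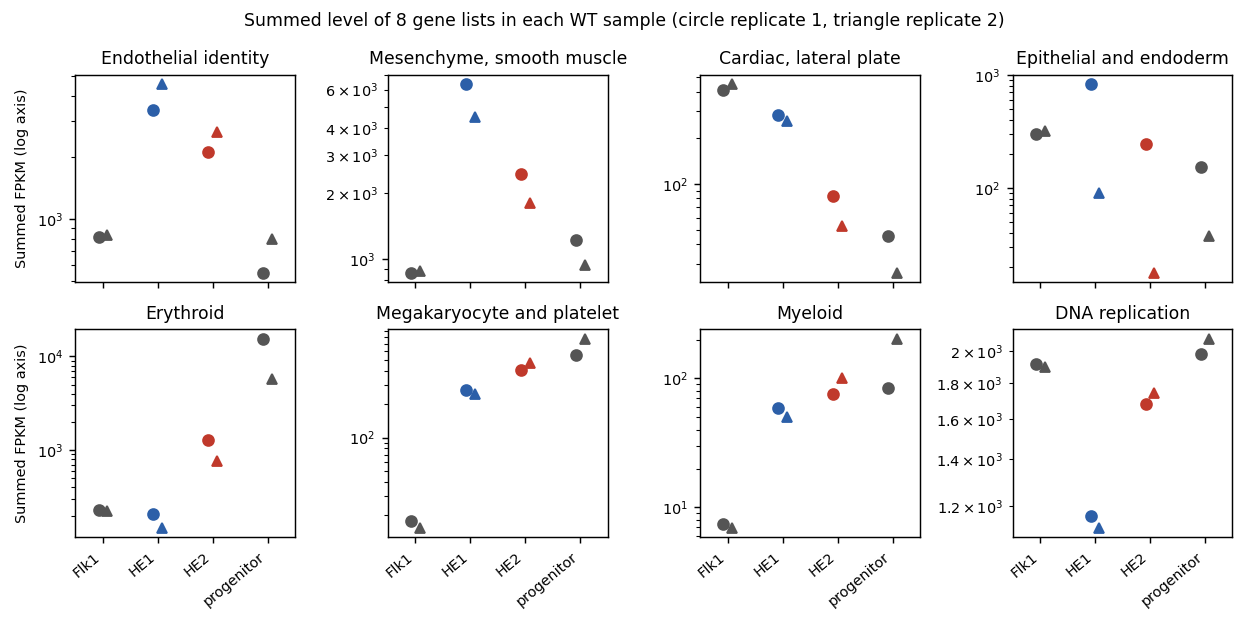
Summed FPKM (log axes) of 8 gene lists in the WT samples of Flk1+, HE1, HE2 and progenitor cells, with circles for replicate 1 and triangles for replicate 2. Endothelial, mesenchymal and cardiac sums are lower in both HE2 samples than in both HE1 samples, blood and replication sums are higher, and the epithelial sum differs more between replicates than between HE1 and HE2.

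The same step was measured in the mutant lines, whose samples did not enter the WT fold changes but did enter the common estimate of spread behind the WT calls. In Sp1_deltaDBD cells 1415 genes rose and 1491 fell from HE1 to HE2 (9.74% and 10.3% of those tested), and in Sp3KO cells 985 rose and 1106 fell (6.78% and 7.61%). Of the 1703 genes that rose in WT, 1678 had a positive change in Sp1_deltaDBD cells and 1670 in Sp3KO cells, against 54.7% and 56.9% of all genes tested. Limma called 1013 (59.5%) and 708 (41.6%) of them in that direction. Of the 1478 genes that fell in WT, 1461 and 1426 had a negative change, against 45.3% and 43.1% of all genes, and 1023 (69.2%) and 782 (52.9%) were called. The median log2 fold changes of the WT rises were 0.75 in WT, 0.57 in Sp1_deltaDBD and 0.49 in Sp3KO cells, and of the WT falls -1.16, -1.03 and -0.83. As the genes were chosen by their WT values, these medians are not compared between genotypes.

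Single genes of the mutant steps are set beside those of WT. Gfi1b changed from 1.04 and 0.797 FPKM in HE1 to 17.8 and 15.9 FPKM in HE2 of Sp1_deltaDBD cells, and from 4.73 and 5.24 to 28.1 and 29.2 FPKM in Sp3KO cells (log2 fold changes 4.07 and 2.50, against 4.30 in WT). Nos3 changed from 35.6 and 25.1 to 6.4 and 1.90 FPKM and from 43.0 and 36.8 to 5.33 and 4.81 FPKM. Lmo2 had log2 fold changes of 0.16 in Sp1_deltaDBD and 0.76 in Sp3KO cells against 1.26 in WT, and Gja5 was listed near 0 in Sp1_deltaDBD cells. In Sp3KO cells Gja5 had 0.0944 and 0.326 FPKM in HE1 and 0.145 and 0.250 FPKM in HE2. Limma tests of the difference between steps had 478 genes at an unadjusted p below 0.05 for Sp1_deltaDBD (3.29% of those tested). For Sp3KO there were 768 (5.29%). After adjustment 1 gene was called for Sp1_deltaDBD (0.00688% of those tested) and 0 for Sp3KO, so the differences of the genes above were not called. With a replicate block the counts of calls were 0 and 35. The count for Sp1_deltaDBD was 0 without WT HE1 replicate 1, WT HE2 replicate 1 or Sp1_deltaDBD HE1 replicate 1, and 2 without Sp1_deltaDBD HE1 replicate 2. The count for Sp3KO was 6 without WT HE1 replicate 2 or Sp3KO HE2 replicate 1, and 1 without WT HE2 replicate 1 or either of Sp3KO HE1 replicate 1 and Sp3KO HE2 replicate 2. Among lists, the pan-hematopoietic genes had a median of 2.26 in WT, 1.53 in Sp1_deltaDBD and 0.98 in Sp3KO cells, and the erythroid genes 1.17, 1.91 and 1.19. Endothelial identity genes had medians of -0.81, -1.08 and -1.10.

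**Figure D5:**
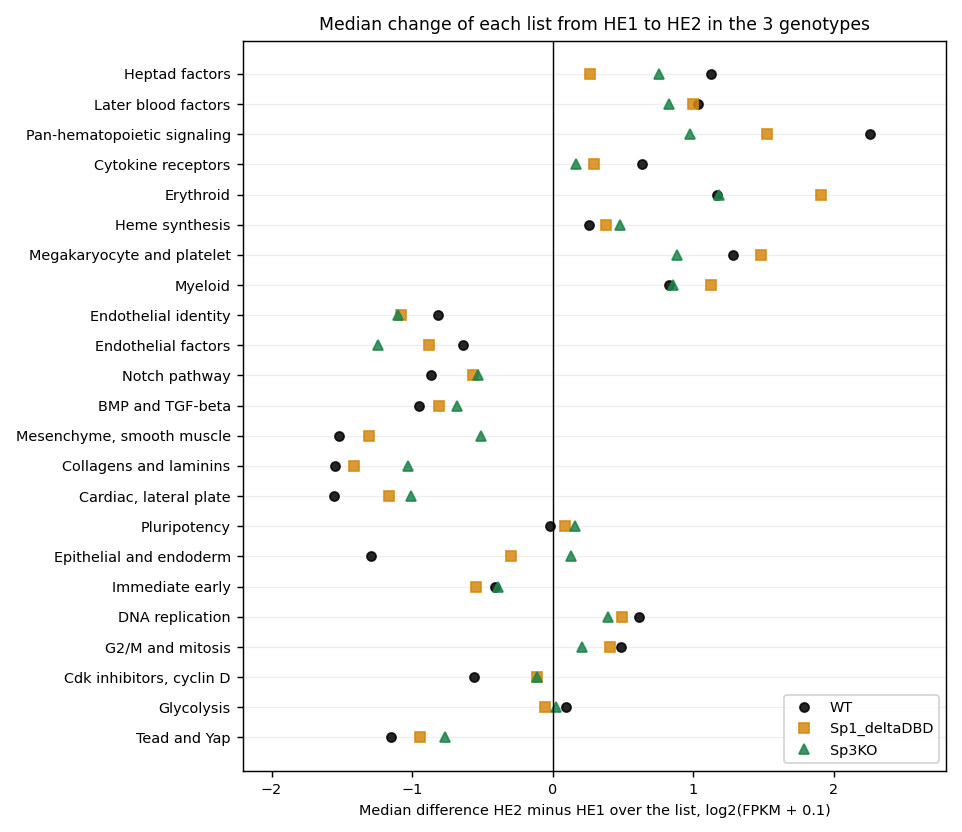
Median difference between HE2 and HE1 on the log2(FPKM + 0.1) scale over each gene list, in WT (circles), Sp1_deltaDBD (squares) and Sp3KO cells (triangles). Medians of the blood, replication and mitosis lists are above 0 and those of the endothelial, matrix, BMP and cardiac lists below 0 in all 3 genotypes, while the epithelial list is on both sides.

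Promoter motifs were counted in the RefSeq windows of 11423 of the 14525 genes tested, 394 of them matched by an older symbol, on both strands. GGGCGG was found in 59.6% of the promoters of genes that rose (1379 promoters), 73.2% of those that fell (1135) and 62.9% of all. CCGGAA, the core of ETS sites, went the other way, with 31.5%, 17.7% and 26.9%. GATAA, the motif of GATA factors, was in 18.3%, 14.3% and 16.3%, and TGTGGT, that of Runx factors, in 14.4%, 11.2% and 12.4%. TGANTCA, the AP-1 motif, was in 3.70%, 4.76% and 4.97%, and GGAATG, that of Tead factors, in 11.6%, 12.9% and 12.1%. Median GC content moved with these shares, at 59.0% in the promoters of genes that rose, 64.7% in those that fell and 60.7% in all, and its part in them was not tested.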

How the data were processed

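RNA-seq of 30 samples (5 populations of WT, Sp1_deltaDBD and Sp3KO cells, 2 replicates each) was used. The deposited values are FPKM per gene, which the authors quantile normalised after alignment to mm10. The submitters' processing notes name HISAT2 (2.1.0) and StringTie (1.3.3). The gene annotation is not given in the sources used here. Values were transformed here as log2(FPKM + 0.1).

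Genes above 1 FPKM in at least 1 sample were tested with limma (3.58.1, R 4.3.3; lmFit, eBayes with trend, two-sided) over 15 group means, with 15 residual and 3.92 prior degrees of freedom. Adjusted p-values are Benjamini-Hochberg over all genes of a comparison, at 0.05. The methods call the replicates biological but do not say whether they came from separate cultures, so p-values measure the spread between these samples only. Groups came from the labels, and the members and gene lists were chosen with earlier results of these data known. Named genes are list members with the largest changes or a defining role, and the 15 largest rises and 15 largest falls among the calls with a mean above 3 FPKM and no overlap of samples. Promoter motifs were counted by exact match. Tables were handled in Python (3.11.15) with pandas (2.3.3) and numpy (2.4.6), and plots drawn with matplotlib (3.10.9). The fit was tested on data simulated with errors independent between samples. Correlation between same-numbered samples was not part of that test. Alternatives changed the pseudocount, filter, trend, centring, samples, replicate block and call rule.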

Additional observations from a re-analysis of the deposited data

Results flagged for a closer look

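The difference between the HE1 to HE2 step of Sp1_deltaDBD cells and that of WT cells was called for 1 gene, Ccdc178, which encodes a coiled-coil protein. It had 0.00089 and 0 FPKM in WT HE1 and 0.0342 and 0.0517 FPKM in WT HE2, against 0.790 and 1.23 FPKM in HE2 of Sp1_deltaDBD cells. The steps differed by 2.92 on the log2(FPKM + 0.1) scale (SE 0.44, adjusted p = 0.0400 by limma). The gene lies below the 3 FPKM of the rule for named genes and was named after its values were seen. Since the WT HE1 level is near 0, the size of this difference rests on the pseudocount. The call was lost without WT HE1 replicate 1, WT HE2 replicate 1 or Sp1_deltaDBD HE1 replicate 1, and also with the replicate block, with only the samples compared in the fit and with genes above 1 FPKM in those samples, where the count was 0 each time. No result of the WT step itself met a rule for listing here, as 2 samples a group are too few to single out 1 of them.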

How the results depend on the processing

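The balance of more genes higher than lower turned over with a pseudocount of 1, centring and the fold rule. None of the 238 called genes named in the lists or among the largest changes reversed its direction. That was almost fixed in advance, since leaving out a library cannot turn a difference between groups that do not overlap. The alternatives of trend, filter, samples in the fit and replicate block leave the fold change as it was. The counts of 1703 genes higher and 1478 lower in HE2 stayed within 1.5 times with 10 WT samples in the fit (1201 and 1098), a filter on the 4 samples compared (1685 and 1431), no filter (1699 and 1479), no intensity trend (1581 and 1410), a pseudocount of 1 (1640 and 1684) and centring on the median change (1405 and 1628). They were 0 and 0 with only the 4 samples compared, and 369 and 802 by the fold rule. With 1 library left out at a time they ranged from 1007 to 1249 higher and from 874 to 1064 lower, and the counts were lowest without HE1 replicate 1. Chosen after seeing the data, leaving out replicate 1 of both populations gave 618 and 532, and leaving out replicate 2 of both 788 and 570. Fewer samples entered these fits.

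The 1 gene whose step differed between Sp1_deltaDBD and WT became 0 with genes above 1 FPKM in the samples compared, 0 with only those samples, 2 without the trend, 2 with a pseudocount of 1, 0 to 2 with 1 library left out and 191 by the fold rule. The 0 genes of Sp3KO became 7 without the trend, 1 with only the samples compared, 8 with a pseudocount of 1, 0 to 6 with 1 library left out and 317 by the fold rule. Causes were not tested. Of the 238 genes, 186 were called with 10 WT samples, 227 with a pseudocount of 1, 224 after centring and 147 by the fold rule.

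The labels number the replicates without saying that a number marks a culture. Across 10052 genes, deviations of same-numbered WT samples correlated at 0.382 between HE1 and HE2, but the pairing rests on 2 numbers. With the replicate block, 2413 genes were higher and 2086 lower, 3180 of the 3181 calls were shared, and the differences of step were 0 for Sp1_deltaDBD and 35 for Sp3KO. The deposited values carry no counts, so no limit of detection was set.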
